A study of Mus musculus with 6 samples.

Results

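The nuclear genes for the subunits of the mitochondrial respiratory chain and ATP synthase were followed in mouse lung cells after instillation of C1q. They were taken by name from the deposited count table: symbols of the Ndufa, Ndufb, Ndufc, Ndufs and Ndufv families, Cox4 to Cox8, Uqcr, Atp5, and Sdha to Sdhd, without pseudogenes (symbols holding -ps), Cox4i2 and Ndufa4l2, and with at least 20 counts summed over the 6 libraries. Of 26890 genes listed, 86 matched by name and 81 reached that count, and all 81 also passed the filter on low counts, so every one of them was tested. The choice used names and total counts and no difference between the groups. The member nearest the limit was Cox6a2 with 111 counts. The 5 left out were Ndufs6b with 19 counts, Cox8b with 15, Ndufa11b with 11, Cox7a1 with 8 and Cox7b2 with 1.

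The libraries came from wild-type C57BL/6 mice, whose lungs were taken at day 3 after intratracheal saline (n = 3) or C1q at 20 µg per mouse (n = 3). C1q is the recognition molecule of the classical complement pathway. The lungs were dispersed with Liberase and DNase and a middle Percoll layer was kept, so each library is a mixture of lung cell types, and the 5′ ends of poly(A) RNA were sequenced. The labels do not say that each library is a separate animal, so p-values measure the spread between libraries, which may be technical. Neither group carried a genetic change, and which libraries are saline was taken from the treatment field, since the longer protocol text mentions C1q for all 6.

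The respiratory chain sits in the inner mitochondrial membrane. Complex I (NADH dehydrogenase) and complex II (succinate dehydrogenase) pass electrons to coenzyme Q, complex III passes them on to cytochrome c, and complex IV (cytochrome c oxidase) gives them to oxygen. Complexes I, III and IV pump protons, and complex V, the ATP synthase, lets them flow back to make ATP. Complexes I, III, IV and V combine the nuclear-encoded subunits described here with subunits encoded in mitochondrial DNA, while complex II is wholly nuclear-encoded. The mitochondrially encoded subunits were not analysed here. In lung, the type 2 and ciliated epithelial cells are known to be rich in mitochondria.

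Promoters are shown for 4 genes that lead the results below, all of them highest in the same saline library. They are the 4 with the smallest p-values among the leading genes of each complex that had an entry in the RefSeq promoter table. Of the 81 genes, 67 matched the table (GRCm38.p6, 250 bases before to 50 after the start). Short motifs were searched on both strands: the NRF1 core GCATGCG, the ETS core CCGGAAG (bound by GABPA among others), the YY1 core ATGGCGG and the GC box GGGCGG. The YY1 core and the GC box both end in GGCGG with a different letter before it, so their matches can share only end letters. Capitals mark matches.
Ndufc1 (chr3:51408906-51409205, minus strand): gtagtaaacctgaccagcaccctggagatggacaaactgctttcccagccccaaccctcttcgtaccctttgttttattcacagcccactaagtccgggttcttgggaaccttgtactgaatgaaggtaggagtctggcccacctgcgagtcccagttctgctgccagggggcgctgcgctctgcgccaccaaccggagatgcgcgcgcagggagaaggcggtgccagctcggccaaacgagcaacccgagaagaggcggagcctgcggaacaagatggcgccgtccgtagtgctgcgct
Ndufb4b (chr19:25032858-25033157, plus strand): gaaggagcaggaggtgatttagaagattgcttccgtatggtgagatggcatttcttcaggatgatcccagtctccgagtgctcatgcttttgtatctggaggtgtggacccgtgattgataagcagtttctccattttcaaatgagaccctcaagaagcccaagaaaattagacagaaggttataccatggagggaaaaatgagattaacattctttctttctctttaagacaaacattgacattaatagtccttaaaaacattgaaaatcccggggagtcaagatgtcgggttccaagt
Atp5j2 (chr5:145191492-145191791, minus strand): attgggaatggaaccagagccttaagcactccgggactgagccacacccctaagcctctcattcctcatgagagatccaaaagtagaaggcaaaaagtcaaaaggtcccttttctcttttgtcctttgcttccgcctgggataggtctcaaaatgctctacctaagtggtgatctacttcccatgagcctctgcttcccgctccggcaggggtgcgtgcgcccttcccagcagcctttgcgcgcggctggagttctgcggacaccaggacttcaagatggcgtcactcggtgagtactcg
Atp5e (chr2:174464052-174464351, minus strand): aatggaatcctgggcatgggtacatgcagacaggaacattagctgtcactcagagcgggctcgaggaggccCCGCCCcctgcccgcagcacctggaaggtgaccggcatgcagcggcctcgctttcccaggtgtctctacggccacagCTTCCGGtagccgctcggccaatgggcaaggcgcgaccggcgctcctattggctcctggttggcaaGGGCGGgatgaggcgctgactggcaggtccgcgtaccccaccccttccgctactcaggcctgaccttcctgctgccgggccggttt
The Atp5e promoter held 1 ETS core and 2 GC boxes, and the other three held 0 matches to these letters.

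Over the promoters of all 67 matched genes, which have 72 entries, the NRF1 core was found in 11 of 72 (15.3%) against 3.58% of all promoters of the table, 32851 entries that include non-coding genes. The ETS core was in 17 of 72 (23.6%) against 8.86% of all promoters, and the YY1 core in 11 of 72 (15.3%) against 4.05% of all promoters. The GC box was in 28 of 72 (38.9%) against 35.7% of all promoters. These are shares of windows that hold the letters, and they say nothing on binding.

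Library totals ran from 2227619 to 3650793 counts, at which 3 counts correspond to 0.830 to 1.35 CPM, the unit of all levels here (counts scaled to a common library size, with TMM factors). The lung label matched the data: the surfactant gene Sftpc of type 2 cells stood between 15953 and 32862 CPM and the club cell gene Scgb1a1 between 6138 and 23044 CPM. Saline replicate 2 stood apart from the other 5 libraries for the genes described here. It was the highest of the 6 libraries for 62 of the 81 genes (76.5%), against 19.6% of all 13473 genes tested. Saline replicate 3 was the lowest for 50 of the 81 genes (23.6% of all genes) and C1q replicate 3 for 25 (14.4% of all genes). The 2 outermost libraries thus both belonged to the saline group, and the main results below are given with and without saline replicate 2.

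The summed level of the 81 genes was 8028, 12496 and 5834 CPM in saline replicates 1 to 3 and 8421, 7976 and 6859.6 CPM in C1q replicates 1 to 3. The whole C1q range lay between saline replicates 3 and 2. The coefficient of variation of a gene had a median of 51.4% over the saline libraries and 16.9% over the C1q libraries, where all genes tested had 18.1% and 15.7%. It was larger in saline for 70 of the 81 genes, and for 7873 of all 13473 genes.

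None of the 81 genes passed the test between C1q and saline. With edgeR's quasi-likelihood test and Benjamini-Hochberg adjustment over all 13473 genes, 0 of 81 had an adjusted p under 0.05 (smallest 0.598), where 0.0297% of all genes passed. DESeq2 and limma-voom also called 0 of the 81, where they called 0.238% and 0.0223% of all genes. At an unadjusted p under 0.05 these tools had 18 and 0 of the 81 lower, where 3.22% and 3.07% of all genes were lower. At an unadjusted p under 0.05 edgeR had 12 of the 81 lower and 0 higher, where 3.94% of all genes were lower and 4.22% higher. The log2 fold change of C1q over saline was negative for 62 of the 81 genes (76.5%) and for 51.8% of all genes. Its median was -0.46 over the 81 and -0.012 over all genes. Of the 12 lower genes, 9 were among the 31 for accessory subunits of complex I and 3 among the 17 for complex V. The 9 include Ndufb4 and its copies Ndufb4b and Ndufb4c, whose values are not independent. The call depended on the filter: when low counts were not filtered out, 22 of the 81 passed in edgeR, all lower, against 1.39% of all genes (0.8% lower and 0.588% higher). All 22 were highest in saline replicate 2, and the unfiltered fit was not repeated without that library. In the filtered fit without it, their log2 fold changes ran from -0.32 (Ndufb4c) to 0.18 (Atp5md).

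Without saline replicate 2 the picture turned. The median log2 fold change of the 81 genes became 0.087 (all genes 0.0099), with 51 positive and 30 negative. In all, 32 genes went from a negative to a positive value, 30 stayed negative, 19 stayed positive and 0 went from positive to negative. The edgeR test again called 0 of 81, against 0.0356% of all genes. At an unadjusted p under 0.05 there were 4 higher and 0 lower genes, where 4.86% of all genes were higher and 6.89% lower. They included Atp5a1, Atp5pb and Cox5a. All 3 C1q libraries lay above the 2 remaining saline libraries for 7 of the 81 genes (14.1% of all genes) and below them for 1 (13.1%). Without saline replicate 3 instead, the median was -0.70 (all genes 0.0049) and 52 of the 81 were lower at an unadjusted p under 0.05, against 5.51% of all genes, and again 0 passed.

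**Figure D1:**
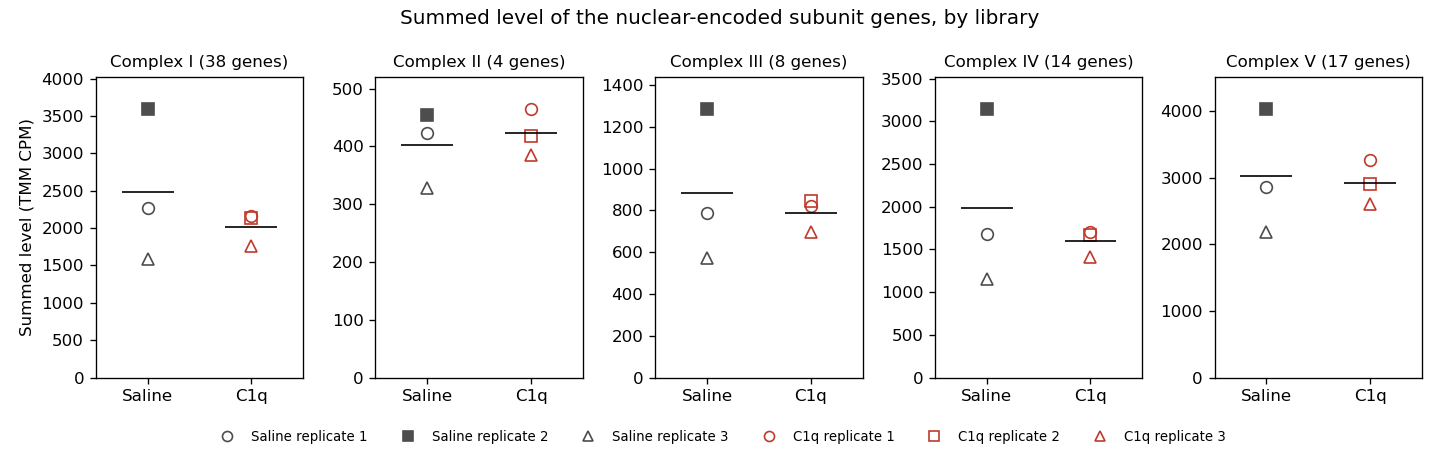
Summed TMM CPM (y axis, from 0) of the nuclear-encoded subunit genes of complexes I to V in each library, with saline in grey and C1q in red, bars at group means and saline replicate 2 filled. Saline replicate 2 is the highest library for complexes I, III, IV and V, and saline replicate 3 is the lowest for every complex.

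**Figure D2:**
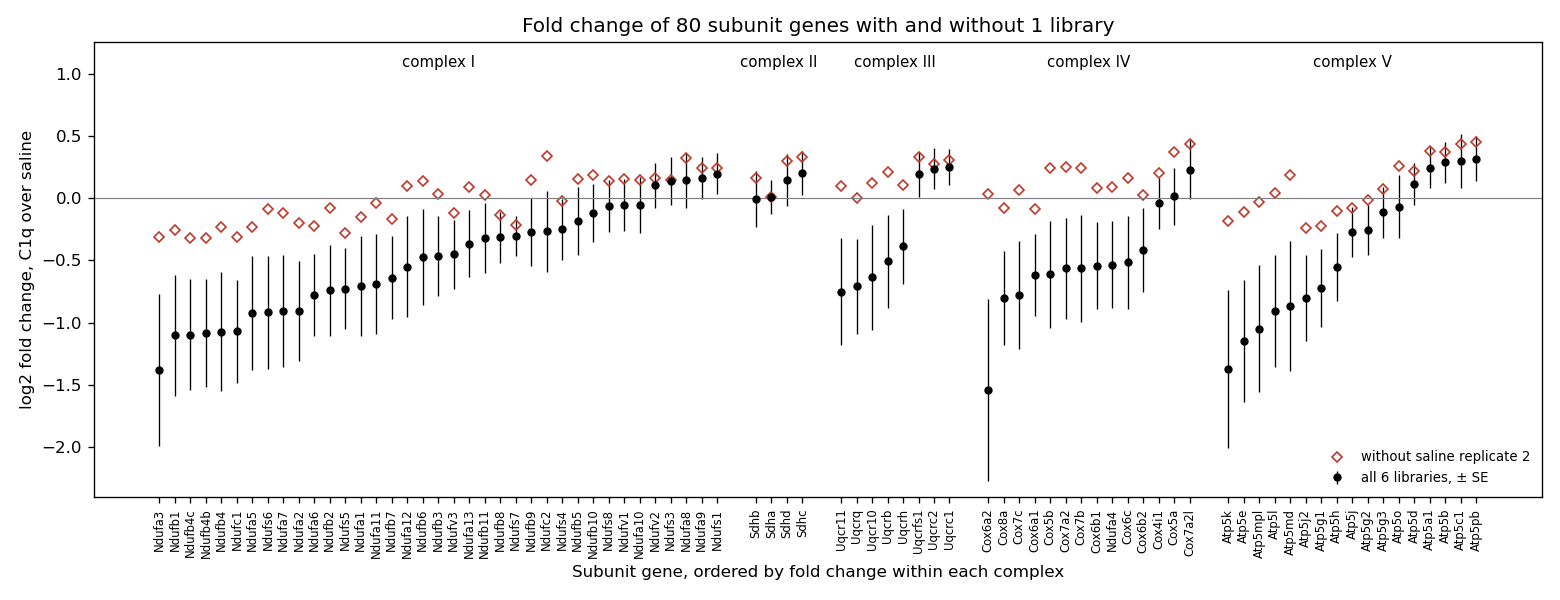
Log2 fold change of C1q over saline (y axis) for 80 of the 81 genes (x axis), ordered within complexes, with black points and SE bars for all 6 libraries and red diamonds for the fit without saline replicate 2. The black points run from -1.54 to 0.32, and 0 of the 81 genes passed in either fit.

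Complex I was represented by 38 genes, 31 of them for accessory subunits, which surround the core and are needed for its assembly and stability. The summed level of the 38 was 2274, 3588 and 1582 CPM in saline replicates 1 to 3 and 2157, 2134 and 1759 CPM in C1q replicates 1 to 3, with all C1q libraries between saline replicates 3 and 1. The accessory genes gave the lower values in the complex, from -1.38 to 0.16: the log2 fold change was below 0 for 29 of 31, the median being -0.64, and saline replicate 2 was the highest library for 29 of them. Without that library the median was -0.090, with 12 of 31 positive. Ndufc1, an accessory subunit of the membrane arm whose promoter is shown above, stood at 19.3, 57.5 and 17.6 CPM in saline replicates 1 to 3 and at 16.3, 13.1 and 14.9 CPM in C1q replicates 1 to 3. It was the only 1 of the 81 genes with all 3 C1q libraries below all 3 saline libraries, where 5.96% of all genes had that order. The gap between the lowest saline and the highest C1q library was small beside the height of saline replicate 2. Its log2 fold change was -1.07 ± 0.41 (SE; adjusted p = 0.598 by edgeR) and -0.31 ± 0.25 without saline replicate 2 (adjusted p = 0.682). Ndufc1 lies on chromosome 3 from 51404677 to 51408988 (GRCm38, GENCODE M21), and is protein-coding.

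Ndufb4, another accessory subunit of the membrane arm, was listed together with its copies Ndufb4b and Ndufb4c. The parent gene stood at 16.7, 44.5 and 8.96 CPM in saline replicates 1 to 3 and at 10.2, 12 and 10.8 CPM in C1q replicates 1 to 3. The copy Ndufb4b stood at 15.8, 43.7 and 12 CPM in saline replicates 1 to 3 and at 11.3, 12.7 and 9.03 CPM in C1q replicates 1 to 3. The copy Ndufb4c stood at 15.1, 43.3 and 12 CPM in saline replicates 1 to 3 and at 8.85, 13.4 and 10.4 CPM in C1q replicates 1 to 3. The 3 genes were at similar levels in each library, with 281, 286 and 279 counts in total. Reads of near-identical copies may have been shared between them, so their values are uncertain and not independent. RefSeq places Ndufb4b on chromosome 19 from 25033108 to 25033578 and Ndufb4c on chromosome 15 from 73809449 to 73809933. Log2 fold changes were -1.07 ± 0.47, -1.08 ± 0.43 and -1.10 ± 0.44, and -0.23 ± 0.32, -0.32 ± 0.30 and -0.32 ± 0.30 without saline replicate 2 (adjusted p from 0.602 to 0.606 and from 0.736 to 0.834).

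Ndufa3, an accessory subunit, had the lowest log2 fold change in the complex. It stood at 12.2, 44.5 and 7.84 CPM in saline replicates 1 to 3 and at 13, 6.70 and 3.61 CPM in C1q replicates 1 to 3. Saline replicate 2 was 4.44 times the mean of the other saline libraries, and the remaining 5 libraries overlapped. The log2 fold change was -1.38 ± 0.61 and -0.31 ± 0.45 without that library. Ndufa6, an accessory subunit of the peripheral arm, stood at 82.9, 171 and 59.4 CPM in saline replicates 1 to 3 and at 57.2, 73 and 51.5 CPM in C1q replicates 1 to 3, with a log2 fold change of -0.78 ± 0.33 and -0.23 ± 0.20 without saline replicate 2. The other accessory genes with an unadjusted p under 0.05 were Ndufb1, Ndufa2 and Ndufs5, at -1.10, -0.91 and -0.73. Without saline replicate 2 these became -0.26, -0.20 and -0.28.

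The 7 nuclear-encoded core subunits of complex I carry the flavin, the iron-sulfur clusters and part of the quinone site. Values of their genes lay on both sides of 0, from -0.30 to 0.30. Their log2 fold changes had a median of 0.10, 4 of 7 positive, and 0.15 with 6 of 7 positive without saline replicate 2. Ndufs1, the largest iron-sulfur subunit, stood at 39.9, 41.3 and 36.2 CPM in saline replicates 1 to 3 and at 45.6, 37.7 and 51.5 CPM in C1q replicates 1 to 3, with overlapping groups and a log2 fold change of 0.20 ± 0.17. Ndufs7, which carries the last iron-sulfur cluster before coenzyme Q, was the lowest core gene, with a mean of 104 ± 16.3 CPM over the saline and 84.3 ± 5.87 CPM over the C1q libraries (SD, n = 3 each) and a log2 fold change of -0.30 ± 0.16.

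Complex II had 4 genes, with log2 fold changes from -0.0074 to 0.20. Its summed level was 423, 455 and 328 CPM in saline replicates 1 to 3 and 464, 418 and 385 CPM in C1q replicates 1 to 3. The groups overlapped, and saline replicate 2 was the highest library for 0 of the 4 genes. Sdha, the flavin subunit that oxidises succinate, stood at 129, 123 and 122 CPM in saline replicates 1 to 3 and at 123, 119 and 136 CPM in C1q replicates 1 to 3, all within a narrow range, with a log2 fold change of 0.0097 ± 0.14. Sdhb, the iron-sulfur subunit, had a mean of 115 ± 26.2 CPM over the saline and 114 ± 30.3 CPM over the C1q libraries and a log2 fold change of -0.0074 ± 0.22 (0.16 ± 0.22 without saline replicate 2). The membrane anchors Sdhc and Sdhd, which bind coenzyme Q, had log2 fold changes of 0.20 ± 0.18 and 0.15 ± 0.21, and 0.33 ± 0.19 and 0.30 ± 0.21 without saline replicate 2. With adjusted p from 0.751 to 0.996, 0 of the 4 passed.

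Complex III divided into parts with opposite signs, and its 8 genes summed to 785, 1283 and 574 CPM in saline replicates 1 to 3 and 823, 845 and 698 CPM in C1q replicates 1 to 3. The genes for the large subunits, the Rieske iron-sulfur protein Uqcrfs1 and the core proteins Uqcrc1 and Uqcrc2, all had positive log2 fold changes, from 0.19 to 0.25. The 5 genes for small subunits all had negative ones, from -0.75 to -0.39, and 0 of the 8 passed. Uqcrc1 stood at 133, 140.5 and 121 CPM in saline replicates 1 to 3 and at 171, 154 and 144 CPM in C1q replicates 1 to 3, with every C1q library above every saline library. That order was shown by 3 of the 81 genes, Uqcrc1 and Atp5b among them, and by 8.12% of all genes. Its log2 fold change was 0.25 ± 0.15 (adjusted p = 0.648) and 0.30 ± 0.17 without saline replicate 2. Uqcrc1 lies on chromosome 9 from 108936633 to 108949623. Uqcr11, a small subunit, stood at 53.7, 150.2 and 34 CPM in saline replicates 1 to 3 and at 47.6, 55 and 37.5 CPM in C1q replicates 1 to 3. Saline replicate 2 was 3.43 times the mean of the other saline libraries, and those overlapped with C1q. Its log2 fold change of -0.75 ± 0.43 became 0.097 ± 0.23 without that library. The same turn was seen in Uqcrh, the hinge protein that helps cytochrome c to dock, from -0.39 ± 0.30 to 0.11 ± 0.20. All 8 genes of complex III had a positive value without saline replicate 2.

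Complex IV had 14 genes, counting Ndufa4, which is named after complex I but is a subunit of complex IV. All of them encode small subunits around a mitochondrially encoded core, apart from Cox7a2l, a factor that joins complexes III and IV into supercomplexes. The 14 genes summed to 1676, 3139.8 and 1154 CPM in saline replicates 1 to 3 and 1709.7, 1669 and 1412 CPM in C1q replicates 1 to 3. Again saline replicate 2 was far above the rest. The log2 fold change was below 0 for 12 of the 14 (range -1.54 to 0.23, median -0.55), and saline replicate 2 was the highest library for 13. Without that library 12 of the 14 were positive (median 0.12), and 0 passed in either fit. Cox4i1, a subunit through which ATP inhibits the enzyme, stood at 404, 541 and 302 CPM in saline replicates 1 to 3 and at 433, 400.0 and 378 CPM in C1q replicates 1 to 3. Its log2 fold change was -0.041 ± 0.20 with and 0.20 ± 0.19 without saline replicate 2. Cox8a stood at 133, 327 and 87.8 CPM in saline replicates 1 to 3 and at 98.5, 114 and 101 CPM in C1q replicates 1 to 3. Saline replicate 2 alone lay far from the rest, and the log2 fold change of -0.80 ± 0.38 shrank to -0.076 ± 0.20 without it. Cox7a2l lay on the other side with a mean of 235 ± 70.9 CPM over the saline and 275 ± 61.2 CPM over the C1q libraries, a log2 fold change of 0.23 ± 0.24, and 0.44 ± 0.23 without saline replicate 2.

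Complex IV also has tissue-restricted isoforms. Cox6a2, the heart and skeletal muscle form of subunit VIa, had the lowest log2 fold change of the 81 genes and stood at 3.86, 24.7 and 2.99 CPM in saline replicates 1 to 3 and at 2.77, 3.88 and 4.06 CPM in C1q replicates 1 to 3. These correspond to 12, 61 and 8 counts in saline and 10, 11 and 9 in C1q, so 1 library held 61 of all 111 counts. The log2 fold change of -1.54 ± 0.73 became 0.036 ± 0.53 without that library. Its widely expressed partner Cox6a1 stood at 252, 462 and 145 CPM in saline replicates 1 to 3 and at 165, 216 and 179 CPM in C1q replicates 1 to 3, with a log2 fold change of -0.62 ± 0.33 and -0.087 ± 0.22 without it. The other muscle-type genes were under the count limit: Cox7a1 had 0, 6 and 0 counts in saline and 1, 1 and 0 in C1q, and Cox8b 1, 10 and 1 against 2, 1 and 0. In both, saline replicate 2 again held the most. The summed level of 8 cardiac muscle markers was 148 to 167 CPM in saline and 114 to 143 CPM in C1q, and that of 7 skeletal muscle markers 25.5 to 33.4 CPM in saline and 28.9 to 39.3 CPM in C1q. In saline replicate 2 the sums were 167 and 25.5 CPM, but 1 gene made up most of each, Actc1 and Acta1. Without Actc1 the other 7 cardiac markers summed to 26.7 CPM in saline replicate 2 and to 18.3 to 36.6 CPM over the 6 libraries. Without Acta1 the other 6 skeletal markers summed to 9.31 CPM there, the highest value, and to 1.94 to 4.94 CPM in the other libraries. Of the 7 skeletal markers, 3 were highest in saline replicate 2 and 4 in another library, and of the 8 cardiac markers 1 and 7. Ckm, the muscle creatine kinase, stood at 3.24 CPM in saline replicate 2 and at no more than 0.903 CPM elsewhere, which is within 3 counts, and Tnni2 at 3.64 against at most 2.57 CPM. Acta1 was lowest in saline replicate 2, at 16.2 CPM, and Mylpf and Myh1 were higher in another library. Among these markers 0 were at 0 in all libraries, and their part in the level of Cox6a2 was not tested. Cox6b2, known as the testis form of subunit VIb, stood at 10.9, 20.6 and 8.59 CPM in saline replicates 1 to 3 and at 9.40, 10.6 and 9.93 CPM in C1q replicates 1 to 3, beside a mean of 70.2 ± 43.2 CPM over the saline and 47.7 ± 10.0 CPM over the C1q libraries for the common form Cox6b1.

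**Figure D3:**
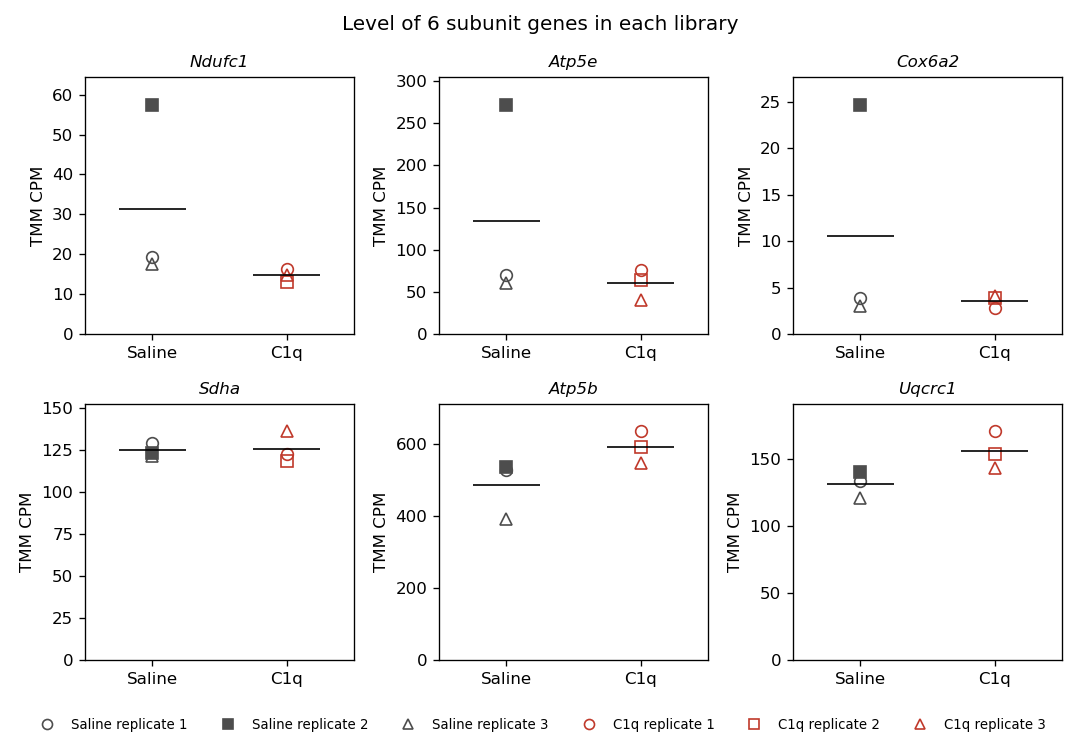
TMM CPM (y axis, from 0) of 6 genes in each library, with saline in grey, C1q in red, bars at group means and saline replicate 2 filled. In Ndufc1, Atp5e and Cox6a2 saline replicate 2 lies far above the other 5 libraries, and in Atp5b and Uqcrc1 the 3 C1q libraries lie above the 3 saline libraries without passing the test. In Sdha the groups overlap within a narrow range.

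The ATP synthase had 17 genes, which summed to 2870.5, 4030.0 and 2195 CPM in saline replicates 1 to 3 and 3267, 2910.3 and 2606 CPM in C1q replicates 1 to 3. The highest library was saline replicate 2 and the lowest saline replicate 3. In the F1 head and central stalk, where ATP is made, 4 of 5 genes had a positive log2 fold change. Atp5b, the catalytic beta subunit, stood at 528, 534 and 391 CPM in saline replicates 1 to 3 and at 635, 589.8 and 547 CPM in C1q replicates 1 to 3. All 3 C1q libraries were above the saline libraries, the nearest pair being C1q replicate 3 and saline replicate 2. The log2 fold change was 0.29 ± 0.17 (adjusted p = 0.648) and 0.37 ± 0.19 without saline replicate 2 (adjusted p = 0.474). Atp5b lies on chromosome 10 from 128083273 to 128090391. The alpha subunit gene Atp5a1 and the gamma subunit gene Atp5c1 had log2 fold changes of 0.24 ± 0.16 and 0.30 ± 0.22, and 0.38 ± 0.17 and 0.43 ± 0.23 without saline replicate 2. Atp5e, the small epsilon subunit of the central stalk, was the exception and stood at 70.4, 272 and 60.9 CPM in saline replicates 1 to 3 and at 75.5, 63.8 and 40.6 CPM in C1q replicates 1 to 3. Saline replicate 2 was 4.14 times the mean of the other saline libraries, and its log2 fold change of -1.15 ± 0.49 (adjusted p = 0.602) became -0.11 ± 0.23 without it. Genes for subunits of the head and central stalk thus stood apart in this library, Atp5b being at 1.16 times the mean of the other saline libraries. Atp5e lies on chromosome 2 from 174461072 to 174464105.

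The membrane part of the ATP synthase had the lower values. All 5 genes for small membrane subunits (Atp5j2, Atp5k, Atp5l, Atp5md and Atp5mpl) had log2 fold changes below 0. Their median was -0.91, and it was -0.028 without saline replicate 2. Atp5j2, which encodes subunit f, stood at 57.9, 116 and 37 CPM in saline replicates 1 to 3 and at 41.2, 46.9 and 31.6 CPM in C1q replicates 1 to 3, with a log2 fold change of -0.80 ± 0.35 and -0.24 ± 0.23 without that library. Atp5k, which encodes subunit e at the dimer interface, stood at 8.36, 37.6 and 6.72 CPM in saline replicates 1 to 3 and at 9.68, 6.70 and 2.71 CPM in C1q replicates 1 to 3. Its log2 fold change was -1.37 ± 0.64, and -0.19 ± 0.46 without saline replicate 2, on 197 counts in all. Among the 3 genes for subunit c, which forms the rotating ring and has the same mature protein from each gene, Atp5g1 stood at 58.5, 105 and 35.1 CPM in saline replicates 1 to 3 and at 41.5, 40.2 and 38.4 CPM in C1q replicates 1 to 3. Saline replicate 2 was highest and saline replicate 3 lowest, with C1q in between, and the log2 fold change was -0.72 ± 0.32 (-0.22 ± 0.22 without saline replicate 2). Atp5g2 and Atp5g3 had log2 fold changes of -0.25 ± 0.20 and -0.12 ± 0.20, and -0.014 ± 0.18 and 0.076 ± 0.20 without that library. In the peripheral stalk, which holds the head still, Atp5pb had the highest log2 fold change of the 81 genes at 0.32 ± 0.18 (adjusted p = 0.643). It stood at 263, 313 and 228 CPM in saline replicates 1 to 3 and at 402, 309 and 290.3 CPM in C1q replicates 1 to 3, with overlapping groups, and its value was 0.45 ± 0.19 without saline replicate 2 (adjusted p = 0.377).

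Across the complexes, the log2 fold change went with the length of the transcript. Lengths were medians over the protein-coding transcripts of GENCODE M21 and were found for 78 of the 81 genes, from 321.5 to 2900 nt. This relation was looked for after the values were seen. Over the 78 genes Spearman's rho between length and log2 fold change was 0.68, as a description across genes that share their libraries, and 0.42 without saline replicate 2. Over the other 12312 genes with a length, which reach to far longer transcripts, it was -0.059 and -0.24. Of the 53 genes shorter than 1000 nt, 3 had a positive log2 fold change (median -0.56), and of the 25 longer ones 16 did (median 0.15). Without saline replicate 2 the counts were 30 and 21, and the medians 0.032 and 0.24. Atp5g1 and Ndufb2 lay off this relation, with annotated medians of 2676 and 2413 nt and log2 fold changes of -0.72 ± 0.32 and -0.74 ± 0.37 (-0.22 ± 0.22 and -0.076 ± 0.23 without saline replicate 2). Their annotated protein-coding transcripts range from 596 to 4715 nt (4 transcripts) and from 455 to 4371 nt (2 transcripts), so these medians may not be the lengths of the transcripts that were counted.

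**Figure D4:**
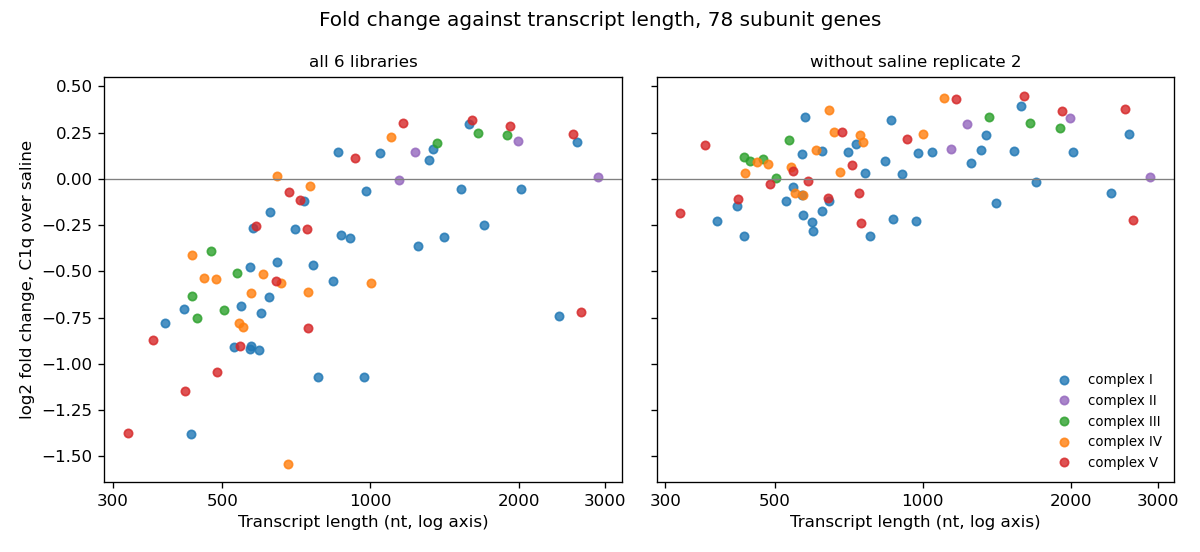
Log2 fold change of C1q over saline (y axis) against transcript length in nt (x axis, log scale) for 78 genes coloured by complex, with all 6 libraries on the left and without saline replicate 2 on the right. On the left the short transcripts reach below -1 and most transcripts over 1000 nt lie above 0, while on the right all values lie between -0.32 and 0.45.

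The same was seen library by library. In genes under 500 nt, saline replicate 2 deviated from the 6-library median by 1.37 on the log2(CPM + 1) scale (median over 13 genes), and the same median was 1.29, 0.68, 0.17 and 0.054 in the classes that start at 500, 700, 1000 and 1500 nt. Genes outside the respiratory chain deviated there by 1.01, 0.73, 0.23, 0.059 and -0.028. The short transcripts of this library were therefore high in general, and the values of the respiratory chain genes were above those of other genes of their class without a test of that difference. Saline replicate 2 was the highest library for all 13 and all 24 respiratory chain genes of the 2 shortest classes, against 79.3% and 76.2% of the other genes there. Saline replicate 3 deviated by -0.38 and -0.32 in the shortest and longest classes and C1q replicate 3 by -0.42 and -0.045. In a fit with an offset by transcript length in each library, added after the data were seen, the median log2 fold change of the 78 genes was -0.11, with 29 positive, and 0 passed, where 0.218% of all genes did. At an unadjusted p under 0.05 in this edgeR fit, 8 of the 78 were lower and 1 higher. Of all 12361 genes in it, 645 were lower and 706 higher.

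**Figure D5:**
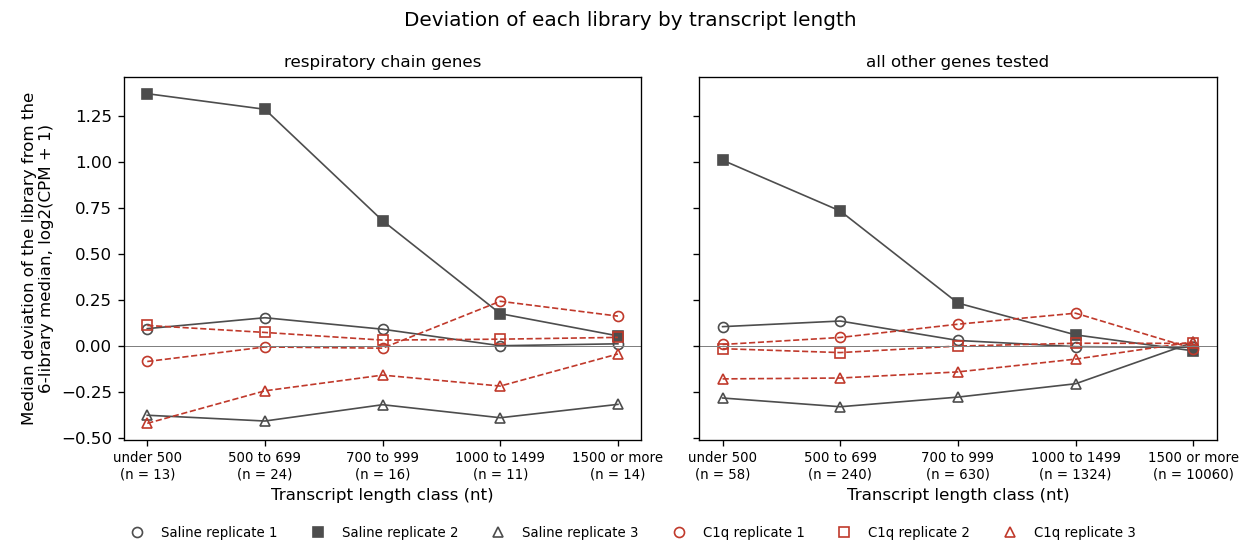
Median deviation of each library from the 6-library median on the log2(CPM + 1) scale (y axis) in 5 transcript length classes (x axis), for the respiratory chain genes on the left and all other genes tested on the right, with saline in grey and C1q in red. Saline replicate 2 (filled squares) starts at 1.37 on the left and 1.01 on the right in the shortest class and comes to within 0.06 of 0 in the longest.

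Other genes of mitochondrial energy metabolism were read from the same fit, and 0 passed over all genes in any of these lists, with or without saline replicate 2. The tricarboxylic acid cycle and pyruvate dehydrogenase genes, which feed the chain and have a median transcript length of 2089.5 nt, had log2 fold changes with 17 of 20 positive, median 0.23 (0.28 without saline replicate 2). In this list 3 of 20 genes were higher and 0 lower at an unadjusted p under 0.05, where 4.22% of all genes were higher and 3.94% lower. Dlat, a subunit of pyruvate dehydrogenase, stood at 26.4, 27.1 and 31.7 CPM in saline replicates 1 to 3 and at 39.3, 40.2 and 36.1 CPM in C1q replicates 1 to 3, and every C1q library was above every saline library (log2 fold change 0.44 ± 0.16, adjusted p = 0.598). Idh2, the mitochondrial NADP-dependent isocitrate dehydrogenase, had a mean of 93.8 ± 10.2 CPM over the saline and 121 ± 7.37 CPM over the C1q libraries and a log2 fold change of 0.37 ± 0.15.

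Assembly factors of the complexes had 12 of 44 positive, median -0.18 (0.027 without saline replicate 2), Ndufaf8 of complex I being at -1.07 ± 0.47 and Uqcc1 of complex III at -0.53 ± 0.23, and at -0.40 ± 0.39 and -0.28 ± 0.23 without that library. Electron carriers and coenzyme Q genes had 10 of 20 positive, median 0.0056 (0.081 without saline replicate 2). The methyltransferase gene Coq5 had a log2 fold change of -0.85 ± 0.27 (-0.54 ± 0.26 without that library) and Coq10b, a coenzyme Q binding protein gene, of 0.37 ± 0.15. Import and nucleotide exchange genes had 16 of 23 positive, median 0.10 (0.22 without saline replicate 2). Within that list the small import subunit Tomm7 stood at 22.2, 85.4 and 18.3 CPM in saline replicates 1 to 3 and at 19.6, 20.1 and 11.7 CPM in C1q replicates 1 to 3, the pattern of the short subunit genes above (log2 fold change -1.25 ± 0.51, and -0.21 ± 0.27 without saline replicate 2), while the phosphate carrier Slc25a3 was at 0.31 ± 0.15. Mitochondrial ribosomal protein genes had 31 of 78 positive, median -0.084 (0.046 without saline replicate 2), with Mrpl3 at 0.55 ± 0.17 and Mrpl57 at -0.93 ± 0.28 (adjusted p = 0.523 and 0.512). Without saline replicate 2 these were 0.59 ± 0.20 and -0.56 ± 0.24.

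Regulators of mitochondrial biogenesis, only some of which act on the nuclear subunit genes, had 8 of 14 positive, median 0.0099 (-0.017 without saline replicate 2). Ppargc1a, which encodes the coactivator PGC-1alpha, stood at 9.32, 6.88 and 12.3 CPM in saline replicates 1 to 3 and at 6.36, 6.00 and 6.32 CPM in C1q replicates 1 to 3. All C1q libraries lay below all saline libraries, and the log2 fold change of -0.61 ± 0.32 did not pass (adjusted p = 0.626, and -0.78 ± 0.35 with adjusted p = 0.403 without saline replicate 2). The transcription factor gene Nrf1 had a log2 fold change of -0.31 ± 0.19. The isoforms left out by the name rule also missed the threshold: Cox4i2, a form of subunit IV known from lung and pericytes, stood at 83.3, 81 and 60.1 CPM in saline replicates 1 to 3 and at 61.7, 38.8 and 47.4 CPM in C1q replicates 1 to 3, a log2 fold change of -0.60 ± 0.20 (adjusted p = 0.547), with overlapping groups. Ndufa4l2 had a log2 fold change of -0.13 ± 0.18.

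The makeup of the suspensions was read from marker lists. Of 17 lists, 5 had their highest sum in saline replicate 2. Saline replicate 1 and C1q replicate 1 also had 5 each. Without their most abundant gene, the cardiac muscle and the smooth muscle and pericyte lists were highest in another library. The alveolar macrophage and skeletal muscle lists were then highest in saline replicate 2. In that library the 5 club cell markers summed to 24951 CPM, and to between 7373 and 12229 CPM in the other libraries. Most of this was Scgb1a1: the other 4 summed to 1908 CPM against 1117 to 1708 CPM, and Hp and Aldh1a7 were higher in another library. The 8 type 2 cell markers summed to 46236 CPM against 24486 to 36046 CPM, and without Sftpc to 13374 CPM against 8533 to 12333 CPM. Of these 8, 3 were highest in saline replicate 2 (Sftpc, Sftpb and Sftpa1) and 5 in a C1q library. The 8 ciliated cell markers summed to 582 to 753 CPM in saline and 475 to 678 CPM in C1q. Dividing-cell markers summed to 31.6 to 53.8 CPM in saline and 50.4 to 143 CPM in C1q, with C1q replicates 1 and 3 far above the rest, and the 11 alveolar macrophage markers in the table to 1323 to 3018 CPM in saline and 2986 to 3692 CPM in C1q. Chil3 made up most of the macrophage sum, and without it the other 10 markers overlapped between the groups, at 574 to 988 CPM in saline and 669 to 909 CPM in C1q. Without their most abundant gene, interstitial macrophage markers summed to 59.4 to 91.9 CPM in saline and 99.8 to 124 CPM in C1q. Fibroblast markers then summed to 1649 to 2138 CPM in saline and 3117 to 3725 CPM in C1q. The endothelial list was lower in C1q, at 1874 to 2305 against 2452 to 2622 CPM. So was the smooth muscle and pericyte list, narrowly, at 437 to 508 against 509 to 552 CPM. On that measure the other lists overlapped. In a mixture of cells, fewer cells of a type and less RNA per cell cannot be told apart, and the part of these cell types in the levels of the respiratory chain genes was not tested.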

How the data were processed

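The authors deposited counts, whole numbers per gene symbol and library with no normalization, per the file headers. Per the submitters' processing notes, cutadapt 2.1.0 and Bowtie2 2.4.2 were used with GRCm38. The sources used here do not give the counting step, its annotation, the use of strand or the counting of molecules, so overlapping genes and reads shared with pseudogene copies cannot be told apart. Groups follow the treatment label. Libraries of 2227619 to 3650793 counts were filtered with filterByExpr (13473 genes kept, 98.2% to 99.3% of counts) and scaled by TMM. C1q was set against saline with the two-sided quasi-likelihood test of edgeR 4.0.16, with no covariate, and adjusted p-values (Benjamini-Hochberg, over all genes kept) were read at 0.05. SEs come from the log2 fold change and F. Each of the 15 library pairs differed beyond counting noise (chi-square per degree of freedom 5.19 to 16.4). Alternatives were DESeq2 1.42.0, limma-voom (limma 3.58.1), RLE, upper-quartile and no scaling, no filter and a stricter one (CPM of at least 5 in 3 libraries), a summed count of 200 in place of 20 for the members, each library left out and, added after the data were seen, an offset by transcript length (lowess, span 0.2). Genes named are those with the 3 smallest p-values and the highest level of each complex, those whose groups did not overlap, isoform pairs, subunit c genes, those nearest the count limit and the 2 smallest p-values of each pathway list, and a few others chosen after their values were seen. Of the genes this rule names, 1 is not reported here. Promoters are from RefSeq, positions and lengths from GENCODE M21. The members, lists and rules were chosen with earlier results of these data known.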

Additional observations from a re-analysis of the deposited data

How the results depend on the processing

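Of the 81 respiratory chain genes, 0 passed in 13 of the 14 alternatives. The exception was edgeR with no filter on low counts, which called 22 of the 81 genes, all lower, and 373 genes in all (1.39% of those tested). All 22 were highest in saline replicate 2, and the unfiltered fit was not repeated without that library. The cause of the difference from the filtered fit was not tested. Over all genes, 4 passed in the reported fit, 32 with DESeq2, 27 with the offset by transcript length and 0 to 10 with 1 library left out. Leaving out 1 library moved the median log2 fold change of the 81 genes over -0.70 to 0.087. That of complex I moved over -0.68 to -0.031 and stayed below 0. The ranges were -0.029 to 0.23 for complex II, -0.74 to 0.16 for complex III, -0.87 to 0.12 for complex IV and -0.43 to 0.040 for complex V. The upper ends were those without saline replicate 2. Of the 81 genes, 32 changed sign without saline replicate 2. Among the 26 genes that the naming rule gives, signs turned with 1 library left out for Atp5g3 (-0.32 to 0.076), Cox4i1 (-0.23 to 0.20), Cox6a2 (-1.97 to 0.036), Cox6b1 (-0.83 to 0.077), Cox6b2 (-0.64 to 0.029), Cox7a2 (-0.90 to 0.25), Cox7b (-0.92 to 0.24), Uqcr11 (-1.11 to 0.097), Uqcrh (-0.67 to 0.11), Uqcrq (-1.05 to 0.0024), Sdha (-0.045 to 0.052) and Sdhd (-0.051 to 0.30). With the offset by transcript length they turned for Atp5g2 (0.032), Atp5g3 (0.060), Cox4i1 (0.11), Cox6b2 (0.12), Uqcrh (0.11) and Sdha (-0.019), and with library size only for Sdha (-0.030). No paired analysis was possible because the replicate numbers only name the libraries in order of deposition. At 3 libraries a group and 0.830 to 1.35 CPM for 3 counts, small differences in genes such as Cox6a2 and Atp5k could not be resolved.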
